A study of Mus musculus with 6 samples.

Results

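The proteasome is the protease complex that degrades ubiquitin-tagged proteins, and its genes carry symbols that begin with *Psm*. All symbols of the expression table made of *Psm*, a letter from a to g and a number were taken, without pseudogenes. This gave 50 genes among the 55364 listed. They comprised 19 genes of the core particle (*Psma* and *Psmb*), 20 of the regulatory particle (*Psmc* and *Psmd*), 5 of activators (*Psme*) and 4 of chaperones of core assembly (*Psmg*). The inhibitor gene *Psmf1* also matched, as did *Psmc3ip*, which matches by its name alone and encodes a partner of meiotic recombination and not a proteasome subunit. Levels were measured by RNA-seq in morulae from BDF1 x BDF1 matings by in vitro fertilization, from mothers aged 8 to 12 weeks and fathers aged 10 to 12 weeks. Zygotes received a control siRNA (control KD) or an siRNA against *Yy1* (*Yy1* KD, 10 µM) in the cytoplasm 2 to 3 h after insemination, were cultured in KSOM, and were collected at 64 h. Each group had 3 libraries, each from a pool of 10 morulae, and the sources used here do not say whether the pools came from separate fertilizations, so the p-values measure the spread between pools. YY1 is a zinc finger transcription factor, and the question was which transcripts depend on it in morulae. Both groups were injected embryos with no genetic change, the sex of the embryos in a pool is not known, and the dose of the control siRNA is not given in the sources used here.

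The core particle is a barrel of stacked rings. The outer rings are made of the alpha subunits (*Psma1* to *Psma7*) and the inner rings of the beta subunits (*Psmb1* to *Psmb7*), among which *Psmb5*, *Psmb6* and *Psmb7* carry the chymotrypsin-like, caspase-like and trypsin-like activities. The regulatory particle caps the barrel. In its base a ring of the ATPases *Psmc1* to *Psmc6* unfolds the substrate. In its lid and base some of the *Psmd* subunits bind or remove ubiquitin. In early embryos this machinery degrades maternal proteins after fertilization.

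*Yy1* was at 96.0, 100.2 and 89.8 TPM (a transcript level scaled for gene length and for the library total) in the control KD libraries and at 8.73, 8.90 and 8.32 TPM in the *Yy1* KD libraries (9.07% of the control), as the labels say. Recovered read pairs on genes were between 11793509 and 24417789 per library. All 8 morula markers examined were expressed, from *Yap1* at 49.6 TPM to *Pou5f1* at 706 TPM in the control KD mean. The 8 markers of cumulus and granulosa cells summed to between 1.48 and 3.69 TPM per library, with *Has2*, *Ptx3*, *Tnfaip6* and *Fshr* listed at 0 in all libraries. The 5 leukocyte markers summed to between 0.956 and 3.12 TPM. In a pool of embryos, fewer cells and less RNA per cell cannot be told apart.

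In control KD morulae the 50 genes together took 7190, 7180 and 7168 TPM, which is 0.718% of all TPM. In *Yy1* KD morulae they took 7497, 6646 and 6617 TPM, so that the groups overlapped. Of the 50 genes, 46 passed the filter on low values (TPM of 1 or more in 3 or more of 6 libraries) and were tested on log2(TPM + 1), the scale of all fold changes given here. At an adjusted p under 0.05 (limma, Benjamini-Hochberg over all 17353 genes tested), 5 were downregulated and 0 were upregulated. These were *Psmd8*, *Psmc3*, *Psmc6* and *Psmd5* of the regulatory particle and *Psmb5* of the core. They make up 10.9% of the members tested, against 4.2% downregulated, 1.92% upregulated and 6.11% called either way among all genes tested. At unadjusted p under 0.05, 11 members were lower (23.9%, against 14.4% of all genes tested) and 1 was higher (2.17%, against 9.35%). Limma-voom on read pairs recovered from the TPM called 4 of the 5, without *Psmb5*, and called *Psma5* higher. Among genes with a mean of at least 20 TPM, 4 of 38 members (10.5%) and 6.85% of all genes were downregulated, and 0 members and 3.55% of all genes were upregulated. The median log2 fold change was -0.05 for the 46 members and -0.02 for all genes tested, and 34 of the 46 members were within 0.25 of no change.

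**Figure D1:**
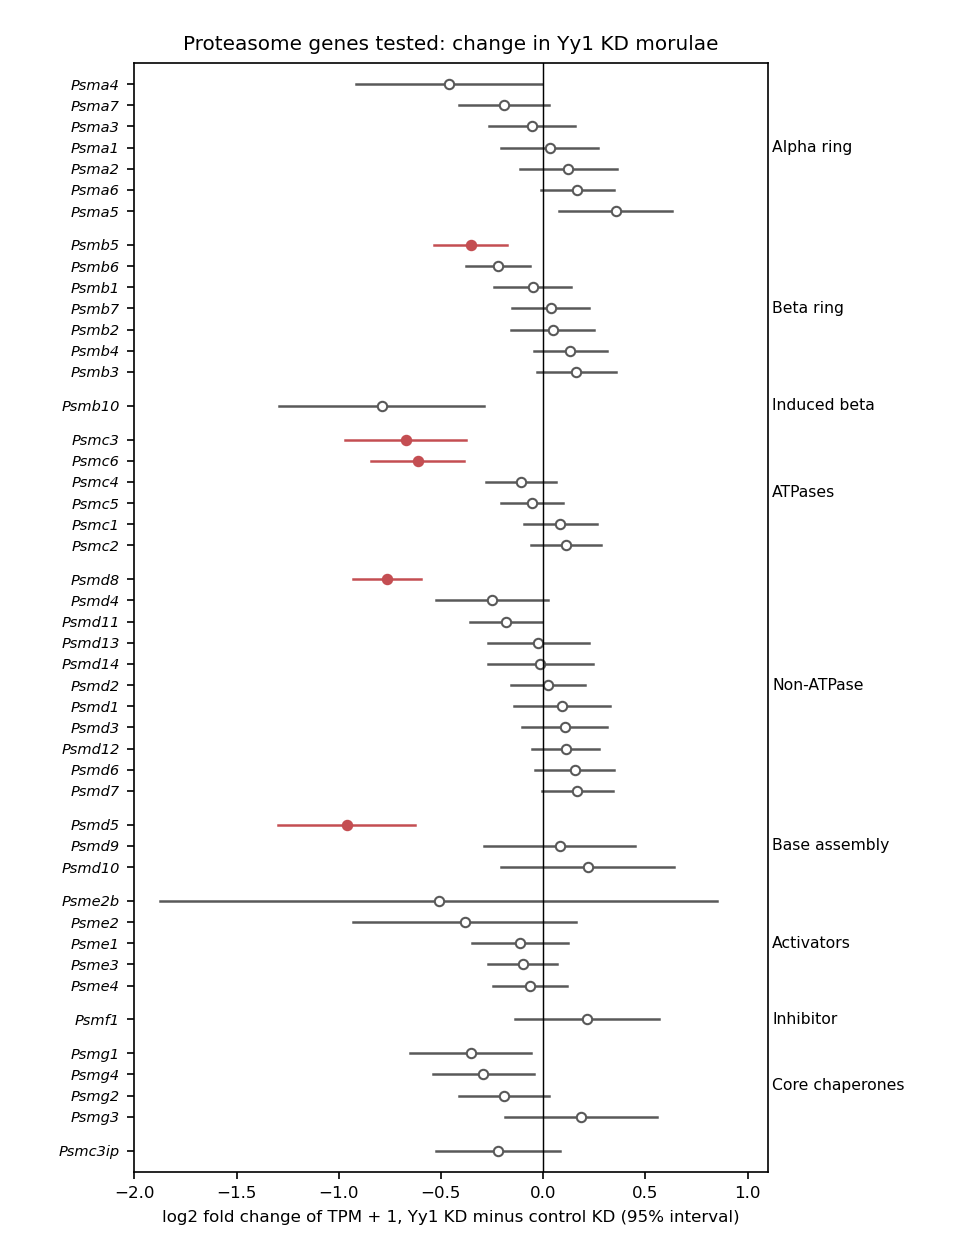
Log2 fold change of TPM + 1 (*Yy1* KD minus control KD) of the 46 proteasome genes tested, grouped by role, with 95% intervals from limma. Filled red points are the 5 downregulated genes, and open points are genes that were not called, of which the lowest is *Psmb10* (-0.79) and the highest *Psma5* (0.36).

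The promoters of these genes were examined for the YY1 consensus, since YY1 was the factor depleted. Matches to GCCATNTT or to its reverse complement AANATGGC were counted from 250 bases before to 50 bases after the start of transcription, with the start as position 1. RefSeq windows (GRCm38.p6, the assembly of mm10) were present for 42 of the 50 genes, and *Psma8*, *Psmb1*, *Psmb2*, *Psmb7*, *Psmc3*, *Psmd3*, *Psmd7* and *Psmg2* had none. The consensus was found in 6 of the 42 genes (14.3%), against 6.96% of all 27025 genes with windows. These include genes too low in morulae to be tested. For this and the other motifs, the share among expressed genes alone was not computed. The 6 genes held 8 matches, and all are shown because they hold the motif of the depleted factor. Each line reads 5′ to 3′ on the strand of the gene, with the match in capitals. The gene *Psmb5* held 3 matches, at positions -176, -91 and 2.
*Psmd8* (chr7:29180662-29180691, minus strand): gacttccgttcGCCATTTTgaatgacagca
*Psmb5*, distal (chr14:54618153-54618182, minus strand): atgccaaaataAAAATGGCaatcttaacca
*Psmb5*, middle (chr14:54618068-54618097, minus strand): tgcccggagtaAAAATGGCgccgcctccgt
*Psmb5*, at the start (chr14:54617976-54618005, minus strand): tgcccttgctaAACATGGCgctggctagcg
*Psma4* (chr9:54950801-54950830, plus strand): cacgcgcgggaGCCATATTcgccgcggatg
*Psmb6* (chr11:70525383-70525406, plus strand): agtagcagaggAAGATGGCggccg
*Psmc5* (chr11:106256177-106256206, plus strand): ccgagagagggAAGATGGCgcttgatgggc
*Psma2* (chr13:14613261-14613290, plus strand): ctttccgggtaAAGATGGCagagcgcggtt

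The match of *Psmd8* spanned the start itself (positions -7 to 1), and that of *Psma4* lay at -47 to -40. The matches of *Psmb6*, *Psmc5* and *Psma2* and the third of *Psmb5* lay after the start and covered the annotated start codon (GENCODE vM21), so that 4 of the 8 matches contain coding sequence. In log2 fold change the 6 genes were *Psmd8* -0.76, *Psma4* -0.46, *Psmb5* -0.35, *Psmb6* -0.22, *Psmc5* -0.05 and *Psma2* 0.12. Of these, *Psmd8* and *Psmb5* were called. Among the other called genes, *Psmd5* and *Psmc6* had no match in the window and *Psmc3* had no window. With the window cut to 100 bases before the start, the same 6 genes had a match (14.3%, against 4.30% of all genes). A match is a run of letters and not a site of binding, and binding was not analysed here.

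Other elements of proteasome promoters were searched in the same way. The ETS site CCGGAAG (other strand CTTCCGG) was present in 15 of the 42 genes (35.7%), against 9.93% of all genes. It occurred in *Psmc6* but in none of *Psmd8*, *Psmd5* and *Psmb5*. The element TGACNNNGC (other strand GCNNNGTCA), to which NFE2L1 and NFE2L2 bind as activators of proteasome genes, was present in 6 genes (14.3%, against 13.99% of all genes), which were *Psmb5*, *Psmb6*, *Psmc6*, *Psmd9*, *Psmd12* and *Psme4*. The NF-Y box CCAAT (other strand ATTGG) was present in 15 genes (35.7%, against 41.1%). Among the 61 matches to the 4 motifs in these genes, 0 pairs of matches to different motifs shared bases.

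**Figure D2:**
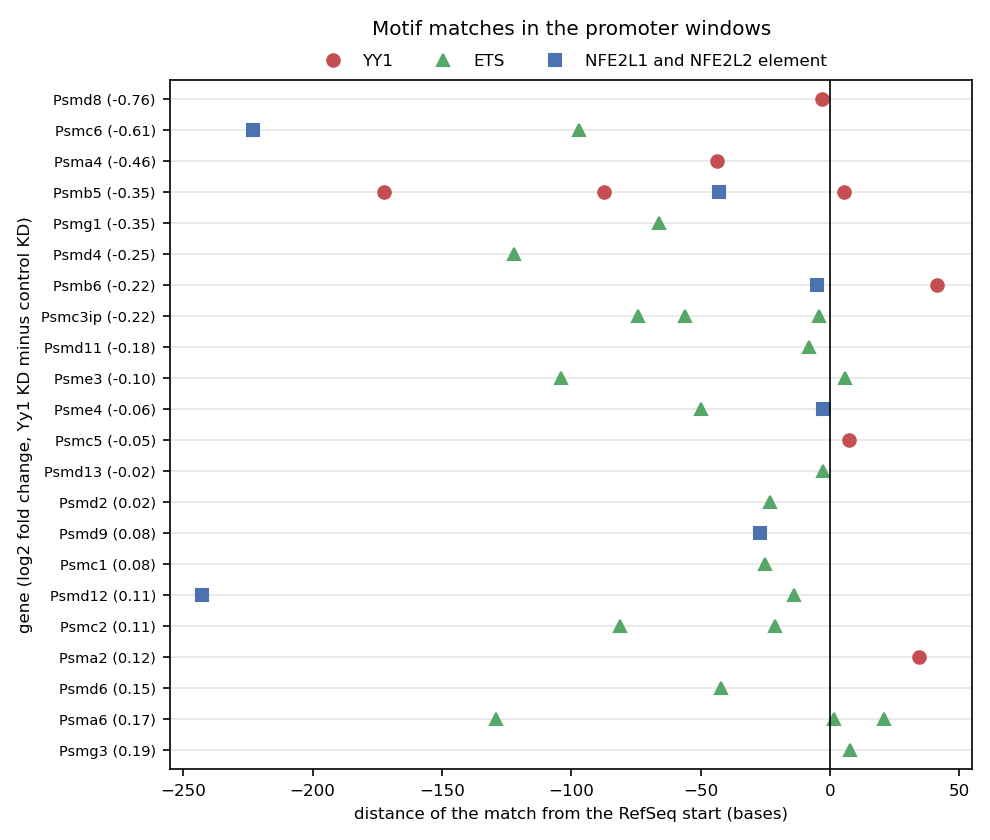
Position of matches to the YY1, ETS and NFE2L motifs relative to the RefSeq start, in bases, for the 22 tested genes with at least 1 of these matches, ordered by log2 fold change (in parentheses, *Yy1* KD minus control KD). *Psmd8* has 1 YY1 match at the start, *Psmb5* has 3 YY1 matches, and *Psmc6* has an ETS and an NFE2L match.

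In the ATPase ring of the base, 2 of 6 genes were called lower, against 4.2% of all genes tested. The other 4 had log2 fold changes between -0.11 and 0.11. *Psmc3* (ENSMUSG00000002102.15, chromosome 2, 91054009 to 91066369, plus strand) encodes one of the ATPases. Its level was 256.9, 235.3 and 244.4 TPM in control KD and 186.0, 137.8 and 141.3 TPM in *Yy1* KD libraries. All *Yy1* KD values were below all control values, and replicate 1 of *Yy1* KD was the highest of its group. The mean went from 245.5 ± 10.9 to 155.0 ± 26.9 TPM (SD, n = 3 each), which is 63.1% of the control. On the log2 scale it fell by 0.67 ± 0.12 (standard error, limma adjusted p = 0.0318). The call was kept in 5 of 12 alternative fits, of which 1 of 6 without a library (largest limma adjusted p = 0.102). *Psmc3* shares 215 exonic bases with *Slc39a13*.

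*Psmc6* (ENSMUSG00000021832.8, chromosome 14, 45329788 to 45349705, plus strand) encodes the ATPase that sits beside that of *Psmc3* and pairs with it during assembly. It was at 194.5, 181.8 and 186.0 TPM in control KD and at 139.2, 114.9 and 113.7 TPM in *Yy1* KD libraries. Again the groups did not overlap and *Yy1* KD replicate 1 was nearest to the control. The mean fell from 187.4 ± 6.46 to 122.6 ± 14.4 TPM (SD, n = 3 each), 65.4% of the control (log2 fold change -0.61, standard error 0.10, limma adjusted p = 0.0210). For *Psmc6* the call was kept in 6 of 12 alternatives and in 1 of the 6 fits without a library (largest limma adjusted p = 0.0785). The remaining ATPase genes, *Psmc1*, *Psmc2*, *Psmc4* and *Psmc5*, had 95% intervals of the log2 fold change that together ran from -0.28 to 0.28. The sum of these 4 levels was 1202 ± 22.6 TPM in the controls and 1207 ± 57.8 TPM after *Yy1* KD (SD, n = 3 each). *Psmc1* was the most abundant ATPase transcript, at 471 ± 8.83 TPM in control KD. Relative to *Psmc1* of the same library, *Psmc3* went from 52.2% ± 2.05 to 30.9% ± 3.32 and *Psmc6* from 39.8% ± 1.30 to 24.5% ± 1.25 (SD, n = 3), ratios chosen after the values were seen.

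Assembly of the base is guided by the chaperones *Psmd5*, *Psmd9* and *Psmd10*, which each hold a pair of ATPases and leave before the particle is complete. *Psmd5* (ENSMUSG00000026869.12, chromosome 2, 34849734 to 34874968, minus strand), which binds the pair of *Psmc1* and *Psmc2*, had the largest change of the 46 genes on the log2(TPM + 1) scale. In percent of the control it was close to *Psmb10* (48.9% and 48.6%), and with limma-voom the log2 fold change of *Psmb10*, which was not called, was larger (-1.05, against -0.99 for *Psmd5*). It was at 16.7, 18.4 and 19.0 TPM in control KD and at 10.003, 9.004 and 7.454 TPM in *Yy1* KD libraries, with no overlap. The level in *Yy1* KD morulae was 48.9% of the control (18.0 ± 1.19 to 8.82 ± 1.28 TPM, SD, n = 3 each). Its log2 fold change was -0.96 ± 0.14 (standard error, limma adjusted p = 0.0178). *Psmd5* was called in 7 of 12 alternative fits and in 2 of the 6 among them that leave out 1 library (largest limma adjusted p = 0.0772). Between 267 and 1374 read pairs per library lay behind these values. *Psmd9*, which binds the pair of *Psmc3* and *Psmc6*, was at 10.6 ± 1.69 TPM in the controls and 11.3 ± 1.22 TPM after *Yy1* KD (log2 fold change 0.08, 95% interval -0.29 to 0.45). In GENCODE vM21 it shares 1849 exonic bases with *Gm26745*. *Psmd10*, also known as gankyrin, had a log2 fold change of 0.22 (95% interval -0.20 to 0.64). *Psmd9* and *Psmd10* are given to complete the set and were chosen after their values were seen. All 3 were low beside the subunits they help to assemble.

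Among the 11 other *Psmd* genes, which encode the non-ATPase subunits of base and lid, *Psmd8* alone was called. Over all genes tested, 4.2% were called lower. *Psmd8* (ENSMUSG00000030591.17, chromosome 7, 29174188 to 29180701, minus strand) encodes a lid subunit that is added late in lid assembly. It was at 272.7, 291.6 and 308.5 TPM in control KD and at 172.3, 167.0 and 172.9 TPM in *Yy1* KD libraries. The *Yy1* KD values lay close together and far below the lowest control value. The mean fell from 290.9 ± 17.9 to 170.7 ± 3.25 TPM (SD, n = 3 each), 58.7% of the control (log2 fold change -0.76, standard error 0.07, limma adjusted p = 0.00651). It had the lowest adjusted p of the 46 genes, and it was called in all 12 alternative fits, those without 1 library included. Its promoter carries the YY1 match that spans the start.

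The 10 remaining non-ATPase genes had log2 fold changes between -0.25 and 0.17. Summed, they were at 2362 ± 19.8 TPM in the controls and 2395 ± 194 TPM after *Yy1* KD (SD, n = 3 each). *Psmd4*, which encodes a ubiquitin receptor, was the most abundant transcript of all 50 genes in control KD (530 ± 27.9 TPM) and was at 449 ± 68.4 TPM in *Yy1* KD (log2 fold change -0.25, 95% interval -0.52 to 0.02, limma adjusted p = 0.249). *Psmd7*, a lid subunit that pairs with the deubiquitinase *Psmd14*, was the second most abundant. It was at 503.6, 496.5 and 488.4 TPM in control KD and 600.8, 550.4 and 523.8 TPM in *Yy1* KD libraries. The groups did not overlap, yet limma did not call the difference (0.17 on the log2 scale, adjusted p = 0.225). *Psmd14* itself was at 99.6% of the control, with a 95% interval of the log2 fold change from -0.27 to 0.25, and was chosen after its value was seen.

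**Figure D3:**
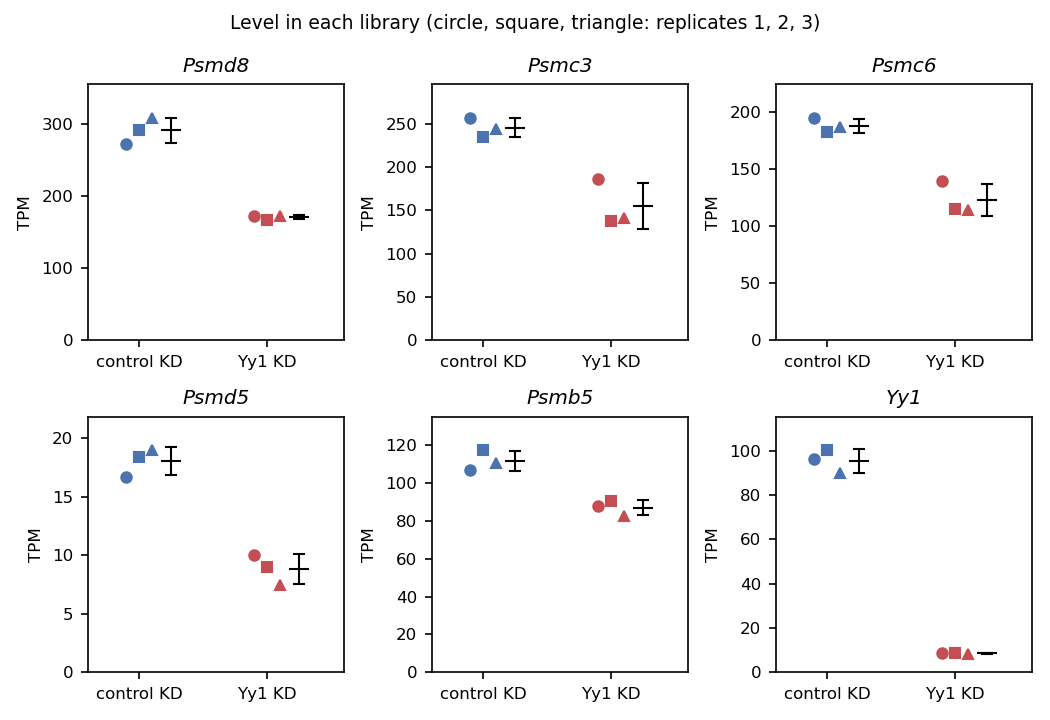
TPM of the 5 downregulated proteasome genes and of *Yy1* in each library, with replicates 1, 2 and 3 as circle, square and triangle, and the mean with SD (n = 3) beside them. In each panel all *Yy1* KD values lie below all control KD values, and replicate 1 of *Yy1* KD is the highest of its group for *Psmc3*, *Psmc6* and *Psmd5*.

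In the core particle, 1 of the 15 genes tested was called lower and 0 higher, against 4.2% and 1.92% of all genes tested. The called gene was *Psmb5*, which encodes a catalytic subunit. *Psmb5* (ENSMUSG00000022193.7, chromosome 14, 54614119 to 54618022, minus strand) was at 106.7, 117.1 and 110.1 TPM in control KD and 87.5, 90.5 and 82.5 TPM in *Yy1* KD libraries. The groups did not overlap. The mean fell from 111.3 ± 5.31 to 86.8 ± 4.05 TPM (SD, n = 3 each), 78.0% of the control (log2 fold change -0.35, standard error 0.07, limma adjusted p = 0.0444). This call lay close to the threshold and was kept in 1 of 12 alternative fits (pseudocount of 0.1). *Psmb5* overlaps the microRNA gene *Mir686* by 109 bases, so that some of its read pairs were divided between them. *Mir686*, whose level includes those divided pairs, had a log2 fold change of -0.54 and was not called (limma adjusted p = 0.0661). Its value is therefore not separate from that of *Psmb5*.

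The other catalytic subunits of the constitutive core did not pass the test. *Psmb6* was at 185.8, 201.9 and 196.1 TPM in control KD and 169.9, 166.0 and 164.2 TPM in *Yy1* KD libraries, without overlap (log2 fold change -0.22, 95% interval -0.38 to -0.07, limma adjusted p = 0.0999). *Psmb7* was at 102.7% of the control, with a 95% interval of the log2 fold change from -0.15 to 0.23. The structural genes *Psmb1* to *Psmb4* had log2 fold changes between -0.05 and 0.16. Over the 7 constitutive beta genes the sum was 909 ± 30.4 TPM in the controls and 890 ± 43.2 TPM after *Yy1* KD (SD, n = 3 each).

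Among the alpha ring genes 0 of 7 were called. The 2 with the largest differences moved in opposite directions. *Psma5* was at 272.2, 259.3 and 247.2 TPM in control KD and 395.5, 300.3 and 308.4 TPM in *Yy1* KD libraries. All *Yy1* KD values were above the control, with replicate 1 far above the other two. The log2 fold change of 0.36 (95% interval 0.08 to 0.63) was not called (limma adjusted p = 0.126), whereas limma-voom on recovered read pairs called it (0.41, adjusted p = 0.0330). The pseudogene *Psma5-ps*, which is no member, was at 13.96 ± 0.693 and 19.8 ± 2.64 TPM (SD, n = 3 each). Reads of the gene and its copy cannot be told apart where their sequences are the same. The paper names the counting of multi-mapped reads for repeats only.

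*Psma4* was at 251.6, 236.2 and 265.9 TPM in control KD and 249.1, 144.5 and 168.2 TPM in *Yy1* KD libraries. Replicate 1 of *Yy1* KD was within the control range, and the other two were far below it. The log2 fold change was -0.46 (95% interval -0.91 to -0.00378, limma adjusted p = 0.207), and without *Yy1* KD replicate 1 it was -0.68 and called (limma adjusted p = 0.0388). *Psma6*, the most abundant alpha transcript, was at 459 ± 32.8 and 514 ± 13.2 TPM and was chosen after its values were seen. The sum of the 7 alpha genes was 1464 ± 42.2 TPM in the controls and 1513 ± 149 TPM after *Yy1* KD (SD, n = 3 each). In control KD the most abundant alpha transcript was 5.81 times the least abundant, and for the beta ring this ratio was 2.92.

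In immune cells, and after interferon, the catalytic subunits are replaced by *Psmb8* (for *Psmb5*), *Psmb9* (for *Psmb6*) and *Psmb10* (for *Psmb7*). *Psmb11* takes the place of *Psmb5* in the thymus and *Psma8* that of *Psma7* in the testis. Of these 5 genes only *Psmb10* was high enough to be tested. It was at 3.97, 6.02 and 4.48 TPM in control KD and 1.97, 2.45 and 2.60 TPM in *Yy1* KD libraries, without overlap. Its log2 fold change of -0.79 (95% interval -1.29 to -0.29) was not called (limma adjusted p = 0.0785), and it rests on 198 read pairs over the control KD libraries and 71 over the *Yy1* KD libraries. As a share of *Psmb7* in the same library it was 7.20% ± 1.34 in control KD and 3.44% ± 0.653 in *Yy1* KD (SD, n = 3 each).

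The other 4 of these genes were at most at 1.04 TPM in any library. *Psmb9* was between 0.344 TPM and that level in the 6 libraries, which was at most 0.569% of *Psmb6*. *Psmb8* was between 0 and 0.143 TPM and *Psma8* between 0 and 0.155 TPM. *Psmb11* was at 0.121, 0.344 and 0.0839 TPM in control KD and 0.539, 0.380 and 0.632 TPM in *Yy1* KD libraries. The latter were higher without overlap, from 23 and 45 read pairs in all, and the gene was too low to be tested.

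**Figure D4:**
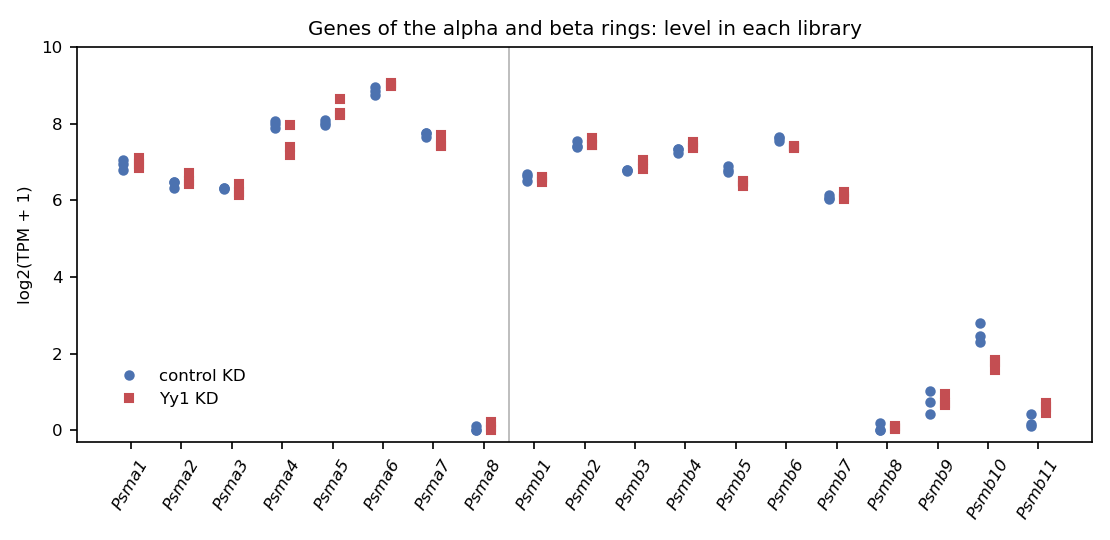
Level of each alpha and beta ring gene in each library as log2(TPM + 1), with control KD as blue circles and *Yy1* KD as red squares. The 14 constitutive genes (control means of 66.7 to 459 TPM) lie far above *Psmb10*, and *Psma8*, *Psmb8*, *Psmb9* and *Psmb11* lie lowest.

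Activators can cap the barrel in place of the regulatory particle. *Psme1* and *Psme2* encode the subunits of the interferon-responsive activator, *Psme3* a nuclear activator and *Psme4* a large nuclear activator, and none of the 5 *Psme* genes was called. *Psme3* was the most abundant, at 153.6 ± 8.51 TPM in the controls and 143.1 ± 3.54 TPM after *Yy1* KD (SD, n = 3 each; log2 fold change -0.10, 95% interval -0.27 to 0.07). *Psme4* was at 81.1 ± 5.07 and 77.4 ± 1.58 TPM (-0.06, 95% interval -0.25 to 0.12). *Psme1* was at 36.2 ± 1.83 and 33.4 ± 2.86 TPM (-0.11, 95% interval -0.35 to 0.12). *Psme2*, its partner, was at 6.35 ± 1.93 and 4.53 ± 0.628 TPM (-0.38, 95% interval -0.93 to 0.16), so that *Psme2* mRNA was 17.6% ± 5.22 of *Psme1* mRNA in control KD. *Psme2b* was the lowest gene tested, at 3.92, 0.926 and 3.28 TPM in control KD and 3.70, 0.217 and 1.45 TPM in *Yy1* KD libraries, and its interval (-1.87 to 0.85) was wide. It rests on 1 to 24 read pairs per library, and read pairs may be misplaced between it and *Psme2*. Where the sequences of *Psme2* and *Psme2b* are the same, read pairs may also have been left uncounted. The share of *Psme2* relative to *Psme1* carries this limit.

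*Psmf1*, which encodes an inhibitor of the core particle, was at 8.94, 11.85 and 9.78 TPM in the controls and 12.95, 10.81 and 12.03 TPM after *Yy1* KD (log2 fold change 0.21, 95% interval -0.14 to 0.57). *Psmc3ip* was at 59.0 ± 6.47 and 50.6 ± 6.67 TPM (-0.22, 95% interval -0.52 to 0.08). Neither was called.

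The chaperones of core assembly work as the pairs *Psmg1* with *Psmg2* and *Psmg3* with *Psmg4*, and none of the 4 was called. *Psmg1* was at 26.7, 27.6 and 32.8 TPM in control KD and 21.7, 25.1 and 20.6 TPM in *Yy1* KD libraries (log2 fold change -0.35, limma adjusted p = 0.145). *Psmg4* was at 37.9, 36.5 and 37.7 TPM and at 34.4, 28.8 and 28.0 TPM (-0.29, limma adjusted p = 0.148). *Psmg2* was at 41.2, 43.6 and 43.4 TPM and at 40.5, 34.3 and 37.4 TPM (-0.19, limma adjusted p = 0.265). In these 3 genes the groups did not overlap and *Yy1* KD was lower, as in 17.2% of all genes tested. *Psmg3* differed from them, at 14.9, 12.8 and 17.0 TPM and at 14.3, 18.7 and 18.2 TPM (0.19, limma adjusted p = 0.524), and its groups overlapped. It shares 280 exonic bases with *Gm26938*, which was at 26.5 and 34.4 TPM on average (0.35, limma adjusted p = 0.260). *Pomp*, the maturation factor that acts with them, was at 49.8 ± 3.02 and 47.5 ± 1.29 TPM (-0.07, 95% interval -0.26 to 0.13).

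Over all 46 genes the 3 control KD values and the 3 *Yy1* KD values did not overlap in 19 (41.3%, against 30.1% of all genes tested), with 12 lower (26.1%) and 7 higher (15.2%) in *Yy1* KD. Among all genes tested, 17.2% were lower and 12.9% were higher without overlap. A two-sided exact permutation test of 3 against 3 libraries cannot go below p = 0.1, the value each of these 19 genes has. The higher genes were *Psma5*, *Psma6*, *Psmb3*, *Psmb4*, *Psmd6*, *Psmd7* and *Psmd12*, none of which was called by limma.

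**Figure D5:**
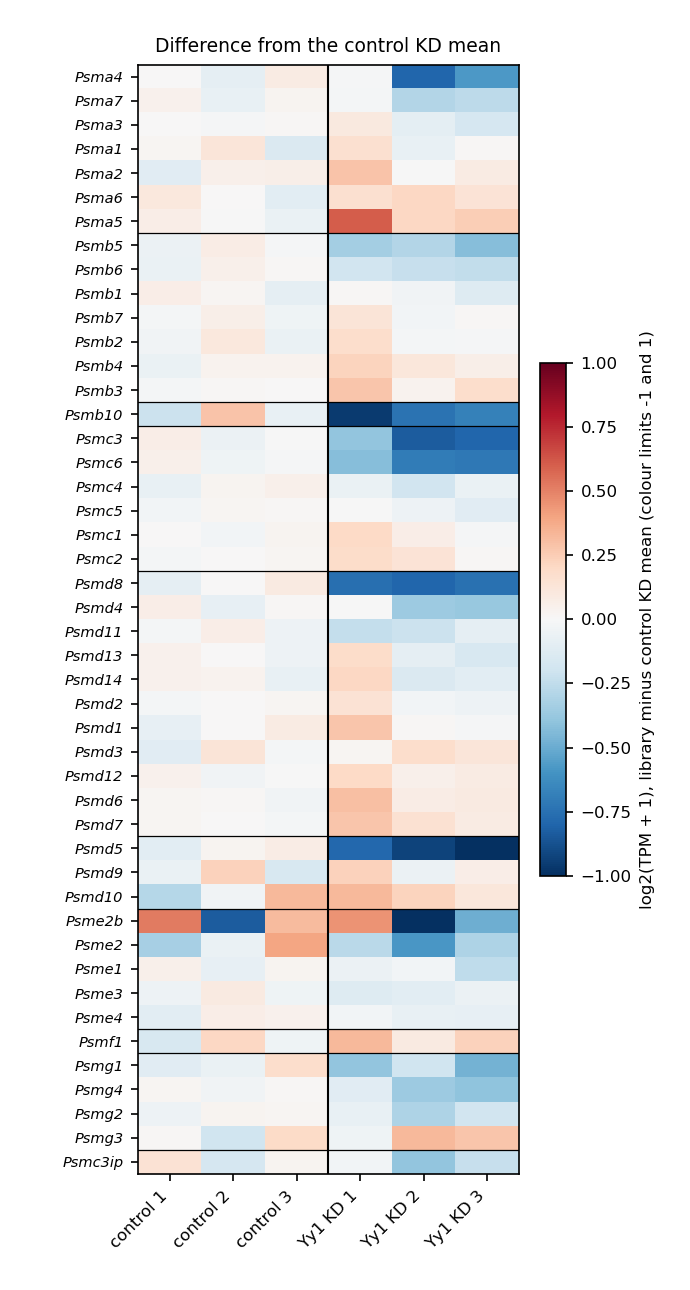
Log2(TPM + 1) of the 46 tested genes in each library minus the control KD mean of the gene, in the order of the plot of fold changes, with colour limits of -1 and 1. *Psmd8*, *Psmd5*, *Psmc3* and *Psmc6* are blue in all 3 *Yy1* KD columns, and the first *Yy1* KD column is redder than the other two over many rows.

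The *Yy1* KD libraries were not alike for these genes. In 35 of the 46 genes (76.1%) replicate 1 was the highest of the 3 *Yy1* KD libraries, against 34.9% of all genes tested. The median difference of replicate 1 from the mean of replicates 2 and 3 was 0.17 on the log2 scale for the members and 0.01 for all genes. The largest such differences, leaving aside *Psme2b*, were those of *Psma4* (0.67), *Psmc3* (0.41) and *Psma5* (0.38). Replicate 1 of *Yy1* KD also had more recovered read pairs (18674188) than replicates 2 and 3 (12865988 and 11793509). The control KD libraries had between 12519597 and 24417789 read pairs, and between 7168 and 7190 TPM summed over the 50 genes. The part of depth in the difference between the *Yy1* KD libraries was not tested. Without *Yy1* KD replicate 1 the downregulated members were *Psmd5*, *Psmc3*, *Psmd8*, *Psmc6* and *Psma4*, again 5 genes. Without control KD replicate 1, 2 or 3 or *Yy1* KD replicate 2 only *Psmd8* was called, and without *Yy1* KD replicate 3 *Psmd8* and *Psmd5* were called. In all these fits the log2 fold changes of the 5 genes stayed negative, with ranges of -1.05 to -0.86 for *Psmd5*, -0.81 to -0.72 for *Psmd8*, -0.81 to -0.59 for *Psmc3*, -0.71 to -0.56 for *Psmc6* and -0.38 to -0.32 for *Psmb5*.

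Around the complex, the ubiquitin pathway was followed with further gene lists. Of the 6 genes for ubiquitin and the E1 enzymes that activate it, 1 was called, against 6.11% of all genes tested. *Uba1*, the main E1 enzyme, was at 370.2, 334.9 and 393.0 TPM in control KD and 240.2, 267.1 and 247.0 TPM in *Yy1* KD libraries. It fell to 68.7% of the control (log2 fold change -0.54, standard error 0.08, limma adjusted p = 0.0213). *Uba1* was called in 5 of 12 alternatives, and in 1 of 6 when a library was left out (largest limma adjusted p = 0.0769). The second E1 gene, *Uba6*, had a log2 fold change of -0.28 (limma adjusted p = 0.157), and the polyubiquitin gene *Ubb* was at 1100 ± 26.2 and 1361 ± 63.0 TPM (0.31, limma adjusted p = 0.0528), both chosen after their values were seen.

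Of 12 proteasome-associated and assembly factors, 1 was upregulated, against 1.92% of all genes tested. *Tpp2*, a peptidase that trims the products of the proteasome, was at 53.9, 53.2 and 47.4 TPM in control KD and 68.1, 66.8 and 69.7 TPM in *Yy1* KD libraries (log2 fold change 0.40, standard error 0.08, limma adjusted p = 0.0405). *Tpp2* was called in 4 of 12 alternatives and in 0 of the 6 that leave out a library (largest limma adjusted p = 0.119). The list had a median log2 fold change of 0.09. Among 6 ubiquitin shuttle receptors tested (median -0.14) and 7 genes of the VCP segregase, which extracts proteins for degradation (median -0.13), 0 were called. Of 6 regulators of proteasome gene transcription tested (median -0.01), 0 were called. *Nfe2l1*, which raises proteasome genes when the proteasome is short, was at 75.4, 63.8 and 76.8 TPM in control KD and 50.6, 54.1 and 59.6 TPM in *Yy1* KD libraries. The groups did not overlap (log2 fold change -0.39, limma adjusted p = 0.0837), and limma-voom on recovered read pairs called it lower (adjusted p = 0.0388). *Nfe2l2* was at 17.5 ± 1.08 and 16.8 ± 3.46 TPM (-0.07, 95% interval -0.44 to 0.30).

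The products of the proteasome feed antigen presentation. Of 15 interferon and antigen presentation genes, 7 were high enough to be tested. Of these, 2 were downregulated, against 4.2% of all genes tested. *H2-K1*, which encodes a class I heavy chain, was at 18.9, 14.3 and 19.8 TPM in control KD and 3.87, 5.69 and 7.39 TPM in *Yy1* KD libraries (log2 fold change -1.51, standard error 0.23, limma adjusted p = 0.0208). *H2-D1* was at 19.2, 19.7 and 24.9 TPM and at 11.5, 9.32 and 9.86 TPM (-0.98, standard error 0.15, limma adjusted p = 0.0192). With a library left out, *H2-K1* was called in 2 of 6 fits and *H2-D1* in 1 of 6 (largest limma adjusted p = 0.0818 and 0.0704). Both belong to a family of near-identical genes, among which read pairs may be misplaced. The list had a median of -0.09, with *Isg15* and *Ifit3* listed at 0 in all libraries.

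The genes next to the members were compared as well, since promoters are often shared. A protein-coding gene on the opposite strand started within 1000 bases of 12 members. Of the 10 such neighbours that were tested 0 were called, against 6.11% of all genes tested. None of the 10 lay beside a called member. The only called member with such a neighbour was *Psmd5*, and its neighbour *Cutal* was too low to be tested. The 0 calls therefore say nothing of promoters shared by the called genes. The *Psmc3* neighbour *Slc39a13*, with which it shares exonic sequence, had a log2 fold change of -0.25 (limma adjusted p = 0.585) and was at 2.99 ± 0.620 TPM in the controls (SD, n = 3). *AY074887*, which overlaps *Psma4* by 114 bases on the other strand, was at 17.4 and 10.4 TPM on average (-0.71, limma adjusted p = 0.0643). Since strand was ignored in counting, reads of such a pair cannot be told apart in the shared bases. Exonic sequence was shared with another gene by 13 of the 46 members tested, *Psmc3* and *Psmb5* among the 5 called.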

How the data were processed

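Total RNA of 3 control KD and 3 *Yy1* KD pools was made into libraries with the SMART-Seq Stranded kit. Per the methods of the study and the submitters' processing notes, the authors removed the first 3 bases of read 2 with Trim Galore (0.6.7), aligned to mm10 with HISAT2 (2.2.1), removed ribosomal RNA reads with bedtools and assigned pairs to GENCODE vM25 genes with featureCounts (2.0.1), dividing pairs over overlapping genes and ignoring strand. The deposited values are TPM. The authors tested counts with edgeR; TPM does not suit a count model, and limma (3.58.1, R 4.3.3) was used here on log2(TPM + 1) with a variance trend and no block, after a filter (TPM of 1 or more in 3 or more of 6 libraries). The scale understates changes of low genes. Adjusted p-values are Benjamini-Hochberg over all genes tested, two-sided. Intervals are 95% from limma.

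Read pairs were recovered as TPM times the exon length in GENCODE vM21 (same assembly), available for 98.1% of genes (not for the version of *Psmc2* in the table). In each library between 80.6% and 81.6% of values under 20 pairs were within 0.02 of a whole number, and between 99.3% and 99.4% within 0.02 of a multiple of 1/6. These pairs gave depth and a limma-voom alternative. Named genes were *Yy1*, called members, the 10 largest changes, the 3 highest and 3 lowest tested levels, catalytic and replaceable core genes, all *Psme*, *Psmf* and *Psmg* genes, *Psmc3ip*, *Pomp*, *Nfe2l1*, *Nfe2l2* and called list genes. Members and lists were chosen with earlier results of these data known. *Paaf1* was not analysed here. 0 columns of values were left unused. Comparison of protein sequences was not done here. Tables were handled in Python 3.11.15 with numpy 2.4.6 and pandas 2.3.3, and plots drawn with matplotlib 3.10.9. The alternatives were another pseudocount, no filter, median-ratio scaling, quantile normalization, limma-voom, a block for replicate number, and fits without each library in turn. Repeats and binding sites were not analysed here.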

Additional observations from a re-analysis of the deposited data

How the results depend on the processing

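Between same-numbered libraries, deviations from the group means had correlations of -0.00388, 0.0319 and 0.0747. Between libraries of different number they ran from -0.0713 to 0.0411. Such values cannot show whether same-numbered pools were paired, and the sources used here do not say. With the replicate number as a block, 69 genes were called higher and 218 lower over all genes, 2 proteasome genes lower (*Psmd8* and *Psmc6*), and 0 higher and 0 lower in the linked lists, against 333, 728, 5, 1 and 3 without the block. Without a filter on low values the same counts were 77, 270, 2, 0 and 1. Limma-voom on recovered read pairs gave 869 higher and 1181 lower genes, 1 proteasome gene higher (*Psma5*) and 4 genes of the linked lists higher. With a pseudocount of 0.1, 2 genes of the linked lists were higher. The cause of these differences was not tested.

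In the 6 fits without 1 library, which have fewer samples, between 23 and 81 genes were higher and between 50 and 335 lower. Between 1 and 5 proteasome genes were lower. In the linked lists 0 genes were higher and between 0 and 2 lower. *Uba1* was called only without control KD replicate 2 among these 6 fits. The median log2 fold change of the regulatory particle was between -0.0591 (without *Yy1* KD replicate 1) and 0.0533 in these fits. Median-ratio scaling and quantile normalization each kept *Psmd5*, *Psmc3*, *Psmd8* and *Psmc6* as called and did not call *Psmb5*. Directions over the alternatives were followed only for the named genes listed under processing, and those that turned were of genes near no change. These were *Psmb7* without *Yy1* KD replicate 1 (-0.00984, with fits without 1 library reaching up to 0.0716), *Pomp* with quantile normalization (0.00701), and *Nfe2l2* with quantile normalization (0.0187) and without *Yy1* KD replicate 2 (0.0314, with such fits reaching down to -0.224). Other members near no change were not followed and may have turned as well.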

Other observations

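Values not given above, for genes of the lists, concern a gene too low to be tested and a gene with a low value in a single library. *Irf1*, which activates immunoproteasome genes, was listed at 0.194, 0.414 and 0.0337 TPM in control KD and 0.877, 0.686 and 0.761 TPM in *Yy1* KD libraries, below the filter on low values. *Rps27a*, which encodes ubiquitin fused to a ribosomal protein, was at 400 TPM in control KD replicate 3 and between 722 and 833 TPM in the other 5 libraries.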
